A study of Mus musculus with 4 samples.

Results

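Transcripts of 10 receptor genes of blood growth factors and interferons were measured in donor cells recovered from the bone marrow of transplanted mice. The 10 genes, Csf2ra, Csf2rb, Csf2rb2, Csf3r, Il6ra, Il6st, Il7r, Ifngr1, Ifnar1 and Ifnar2, were taken by symbol, and all 10 were found among the 23284 symbols of the deposited tables. Donor cells were LSK cells (negative for lineage antigens, positive for Sca1 and c-Kit), the marrow fraction that holds stem and multipotent progenitor cells, sorted from CAG-EGFP mice. In these mice the ubiquitous CAG promoter drives EGFP, so that the donor cells and whatever they give rise to can be sorted again. Wild-type recipients of 100000 cells each had been given 5-fluorouracil (5-FU, a pyrimidine analog that kills dividing cells) intravenously at 200 mg/kg 2 days before the transplant, or were untreated controls. EGFP+ cells were sorted from each recipient 24 h after the transplant, and there were 2 libraries from 5-FU recipients and 2 from control recipients. The second sort used EGFP alone, and the labels name no ages. The comparison asks how receptor transcripts of donor-derived cells differ between a marrow conditioned with 5-FU and an unperturbed one.

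These receptors have no enzyme activity of their own. Each binds its cytokine outside the cell and passes the signal through Janus kinases attached inside the membrane, which phosphorylate STAT transcription factors that move to the nucleus. Most work as pairs of chains, and some of these chains are shared by the receptors of several cytokines. In marrow they set survival, division and lineage output of progenitors, and mature macrophages and neutrophils use the same receptors.

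Values are FPKM, fragments per kilobase of transcript scaled for library size, by a setting that no source used here states. They allow levels of different genes to be set side by side. No source used here states the number of reads. From the steps between the values of 134 low genes, it was put at about 8.13M and 8.70M reads in 5-FU recipients 1 and 2 and at 6.66M and 6.92M in control recipients 1 and 2, and these figures are rough. The cells are labelled as hematopoietic stem and progenitor cells. Markers of such cells were present, with Kit at 66.2 and 69.5 FPKM in 5-FU recipients, against 102.8 and 65.5 in control recipients. The 13 stem and progenitor markers summed to 771 and 1027 FPKM in 5-FU recipients, against 915 and 835 in control recipients. Of 12 tested, 7 had positive log2 fold changes and 5 negative. Only Ly6a had an adjusted p under 0.05, as higher (log2 fold change 1.19, adjusted p = 0.032 in limma). Macrophage markers were far higher as a sum, although some, such as Marco, lay below Kit. The 16 macrophage markers summed to 17907 and 10583 FPKM in 5-FU recipients 1 and 2, against 22459 and 24771 in control recipients 1 and 2, and none was at 0. Of 9 T and NK cell markers, 7 were below 2 FPKM in every library, while Nkg7, a granule protein gene, rose to 184.3 and 313.7 FPKM in 5-FU recipients, against 108.9 and 91.1 in control recipients (log2 fold change 1.26, adjusted p = 0.028 in limma). In such bulk samples, fewer cells of a type and less RNA per cell cannot be told apart.

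All 10 receptor genes had lower means in cells from 5-FU recipients than in cells from control recipients. The log2 fold changes, on log2(FPKM + 1), lay between -1.09 and -0.38 with a median of -0.68, beside a median of -0.01 over all 11496 genes tested. At an adjusted p under 0.05 (limma with a mean-variance trend, two-sided, Benjamini-Hochberg over all tested genes) 2 fell, Ifngr1 and Ifnar1, none rose and 8 did not pass. Over all tested genes the same rule called 4.67% lower and 8.23% higher. At an unadjusted p under 0.05 there were 5 lower receptors and 0 higher. The share of all tested genes past that looser threshold was not counted, here or in the refits below. For 8 of the 10, both 5-FU libraries lay below both control libraries, which held for 30.7% of all tested genes, while the opposite order held for none of the 10 and for 31.4% of all tested genes. The 2 that overlapped were Csf2ra and Il7r. The count of lower receptors was 0 without control recipient 1 and 0 without control recipient 2, 7 without 5-FU recipient 1 and 3 without 5-FU recipient 2. The share of all tested genes called lower moved too, to 0.331%, 0.374%, 16.3% and 6.65% in the same order. The receptor count was also 0 when no filter on low values was used (3 at an unadjusted p under 0.05) and 0 when limma's trend was left out (5 unadjusted), where 4 of 16391 and 299 of 11496 genes were called lower.

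**Figure D1:**
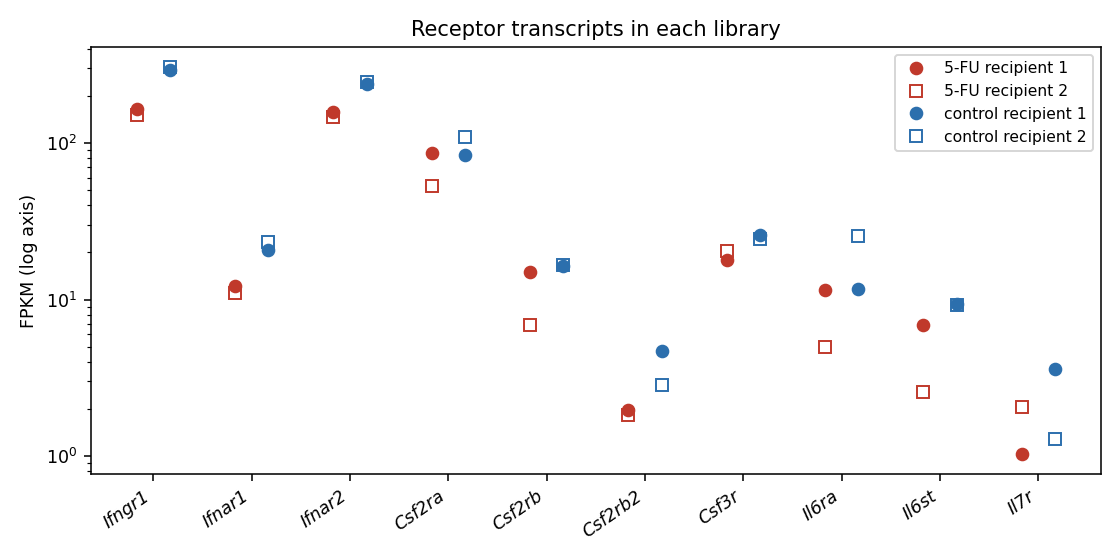
FPKM of the 10 receptor genes (log axis) in each library, with 5-FU recipients in red left of control recipients in blue, circles for recipient 1 and squares for recipient 2. The 3 interferon receptor genes sit close together within each group and apart between groups, whereas Csf2ra and Il7r overlap.

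Ifngr1 was the highest of the 10 in every library. It stood at percentile 94.5 and 93.2 of the tested genes in 5-FU recipients and 97.1 and 97.2 in control recipients, and Il7r had the lowest mean in both groups. By mean FPKM the order in 5-FU recipients was Ifngr1, Ifnar2, Csf2ra, Csf3r, Ifnar1, Csf2rb, Il6ra, Il6st, Csf2rb2 and Il7r. The order in control recipients was the same except that Il6ra stood above Csf2rb. Among neighbours in these orders, the libraries of Ifngr1 and Ifnar2 overlapped in 5-FU recipients, as did those of each neighbouring pair among Ifnar1, Csf2rb, Il6ra and Il6st, and those of Csf2rb2 and Il7r. In control recipients the neighbours that overlapped were Ifnar1 with Il6ra, Il6ra with Csf2rb, and Csf2rb2 with Il7r, and Csf3r overlapped Il6ra, which is not its neighbour.

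The interferon receptor genes gave both of the calls. Ifngr1, on chromosome 10 at 19591949 to 19610229 (GRCm38.p6 for all places), encodes the ligand-binding chain of the interferon gamma receptor. It had 164.8 and 149.7 FPKM in 5-FU recipients 1 and 2, against 292.0 and 306.4 in control recipients 1 and 2. The groups were far apart relative to the gap within each, with means of 157.3 ± 10.7 and 299.2 ± 10.2 FPKM (SD, n = 2 each). Its log2 fold change was -0.92 (SE 0.19, adjusted p = 0.024 in limma). The fold change lay between -0.99 and -0.86 with any 1 library left out. Its call was lost without control recipient 1 (adjusted p = 0.25) or control recipient 2 (adjusted p = 0.29).

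Ifnar1 encodes the signalling chain of the type I interferon receptor, which binds Tyk2. It had 12.2 and 11.0 FPKM in 5-FU recipients, against 20.6 and 23.4 in control recipients. Both 5-FU libraries were low and differed little, with group means of 11.6 ± 0.878 and 22.0 ± 1.95 FPKM (SD, n = 2 each). The log2 fold change was -0.86 (SE 0.22, adjusted p = 0.046 in limma), and the call was likewise lost without control recipient 1 (adjusted p = 0.23) or 2 (adjusted p = 0.35).

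Ifnar2, the high-affinity binding chain of the same receptor, is also made in a secreted form that gene-level values do not separate. It had 157.5 and 147.1 FPKM in 5-FU recipients, against 239.0 and 244.5 in control recipients. The groups did not overlap, but its log2 fold change of -0.66 (SE 0.19, 95% interval -1.10 to -0.23) did not pass, with an adjusted p of 0.057 in limma. It passed without 5-FU recipient 1 at -0.71 (adjusted p = 0.0059) and without 5-FU recipient 2 at -0.61 (adjusted p = 0.025), where the remaining library is assumed to vary like the control group.

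The 2 chains of the type I receptor stood at unequal levels. The FPKM ratio of Ifnar1 to Ifnar2 was 0.0778 and 0.0748 in 5-FU recipients, against 0.0863 and 0.0956 in control recipients. Ifngr2, the signalling chain of the interferon gamma receptor, had 41.1 and 39.5 FPKM in 5-FU recipients, against 58.5 and 70.3 in control recipients (log2 fold change -0.66, SE 0.20, adjusted p = 0.065 in limma). The ratio of Ifngr1 to Ifngr2 was 4.01 and 3.79 in 5-FU recipients and 4.99 and 4.36 in control recipients. Both ratios were lower in each 5-FU library than in each control library, and neither was tested.

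Ifnar1, Ifnar2 and Ifngr2 are neighbours. On chromosome 16 the stretch from Ifnar2 (91372783 to 91405589) to Ifngr2 (91547059 to 91564007) holds 4 protein-coding genes in the RefSeq table, and the other two are Il10rb (91406157 to 91425834) and Ifnar1 (91485032 to 91510523). Il10rb encodes a chain shared by the receptors of interleukin 10 and lambda interferons. It had 208.2 and 143.2 FPKM in 5-FU recipients, against 266.7 and 306.0 in control recipients (log2 fold change -0.72, SE 0.24, adjusted p = 0.083 in limma). All 4 genes had both 5-FU libraries below both control libraries, an order that 30.7% of all tested genes had. Their log2 fold changes were -0.86 to -0.66, and only Ifnar1 passed. This stretch was looked at after the values were seen. Ifngr1 lies apart, on another chromosome.

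The sequence just upstream of each of the 3 interferon receptor genes is shown, since both receptor calls were among them. Lower means were not particular to these genes, as all 10 receptors had them. The letters run 5′ to 3′ on the plus strand up to the base before the RefSeq gene start, from RefSeq on GRCm38.p6. Ifngr1 is chr10:19591699-19591948, Ifnar1 chr16:91484965-91485031 and Ifnar2 chr16:91372533-91372782. The stretch of Ifnar1 is shorter, at 67 bases against 250 for Ifngr1 and Ifnar2, because the rest of its window in the promoter table lies past the annotated gene start. Capitals mark matches on either strand to CCAAT, to GGGCGG (the GC box), to CGGAAG (an ETS-type core) and to TTCNNNGAA (the palindrome that STAT dimers bind).
Ifngr1: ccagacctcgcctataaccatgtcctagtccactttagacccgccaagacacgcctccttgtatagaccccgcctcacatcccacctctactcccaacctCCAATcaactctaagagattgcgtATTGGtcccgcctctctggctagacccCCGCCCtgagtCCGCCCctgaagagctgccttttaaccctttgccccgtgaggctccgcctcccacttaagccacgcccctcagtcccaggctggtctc
Ifnar1: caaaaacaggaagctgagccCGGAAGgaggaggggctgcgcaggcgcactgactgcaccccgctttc
Ifnar2: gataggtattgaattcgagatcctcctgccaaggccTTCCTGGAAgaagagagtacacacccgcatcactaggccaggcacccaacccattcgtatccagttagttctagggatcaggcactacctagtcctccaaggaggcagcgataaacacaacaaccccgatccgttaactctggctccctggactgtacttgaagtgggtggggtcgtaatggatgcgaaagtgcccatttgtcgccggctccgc
The Ifngr1 stretch held 2 matches to CCAAT and 2 to GGGCGG, the Ifnar1 stretch 1 to CGGAAG and the Ifnar2 stretch 1 to TTCNNNGAA. The whole 250-base window of Ifnar1 also held GGGCGG, as did that of Ifngr1. Promoter windows were found for 9 of the 10 receptors. In the 250 bases before the start as the promoter table places it, CCAAT was found in 33.8% of 32851 windows, GGGCGG in 32.7%, CGGAAG in 13.6% and TTCNNNGAA in 7.02%. Among the 9 receptor windows the same motifs were found in 3, 4, 1 and 3. The core of the interferon-stimulated response element was in 2.98% of all windows and TATAAA in 12.4%, and neither was in any of the 9. A match is only a match of letters.

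**Figure D2:**
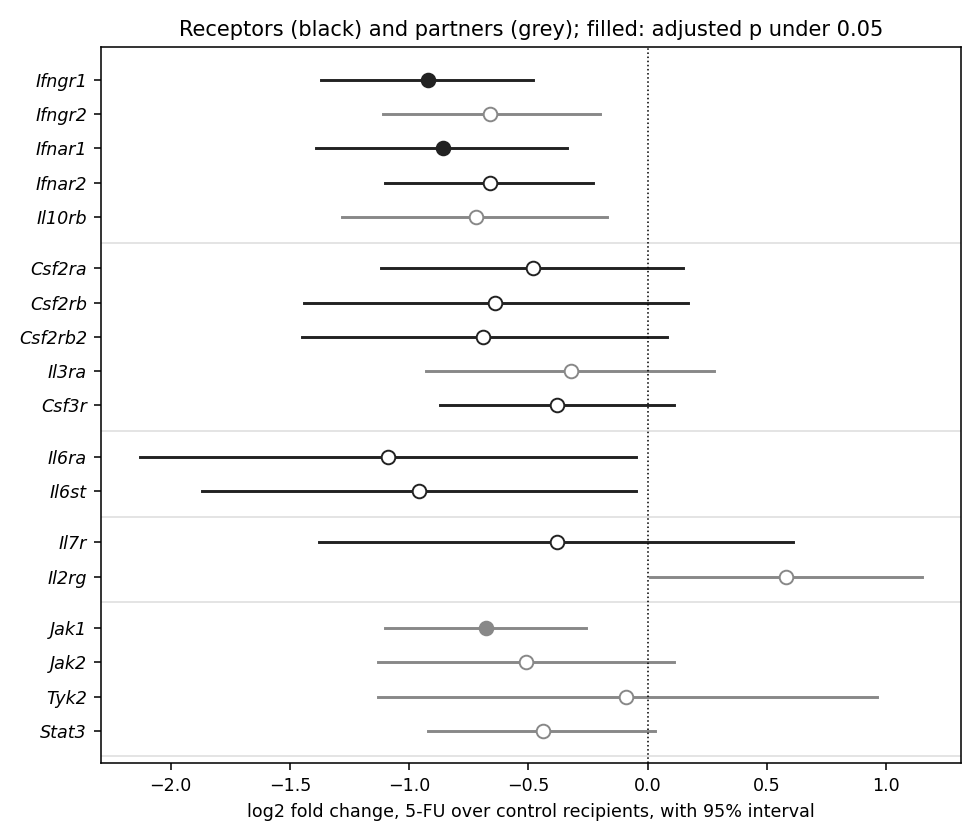
Log2 fold change of 5-FU over control recipients with its 95% interval, for the 10 receptor genes (black) and partner chains, kinases and Stat3 (grey), with filled points at an adjusted p under 0.05. Ifngr1 and Ifnar1 are filled at -0.92 and -0.86, Jak1 is filled at -0.68, and Il2rg is the point right of 0.

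Of the GM-CSF and IL-3 receptor chains, Csf2ra and Csf2rb differed more between the 5-FU libraries than Ifngr1, Ifnar1 and Ifnar2 did. Csf2ra, the GM-CSF-specific alpha chain on chromosome 19, had 86.8 and 52.8 FPKM in 5-FU recipients 1 and 2, against 83.1 and 108.9 in control recipients. The first 5-FU library lay within the control range and only the second was below it. The log2 fold change of -0.48 (SE 0.27, 95% interval -1.12 to 0.15) did not pass, with an adjusted p of 0.26 in limma. It was -0.84 without 5-FU recipient 1 (adjusted p = 0.0085) and -0.13 without 5-FU recipient 2.

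Csf2rb encodes the beta chain shared by the receptors of GM-CSF, IL-3 and IL-5. It had 14.9 and 6.88 FPKM in 5-FU recipients, against 16.3 and 16.6 in control recipients. The second 5-FU library was again the low one, and the log2 fold change of -0.64 (SE 0.35) had an adjusted p of 0.25 in limma. Without 5-FU recipient 1 it was -1.14 (adjusted p = 0.0069), and without 5-FU recipient 2 it was -0.13. Csf2rb2, a beta chain found in mice that serves IL-3 alone, had 1.98 and 1.83 FPKM in 5-FU recipients, against 4.69 and 2.84 in control recipients. Here the control libraries were the uneven ones. The log2 fold change was -0.69 (SE 0.33, adjusted p = 0.20 in limma), -0.40 without control recipient 1 and -0.97 without control recipient 2, and it passed in none of these. The Csf2rb2 values correspond to roughly 75 to 148 reads per library.

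These beta chain genes are neighbours on chromosome 15, Csf2rb2 at 78282507 to 78305721 and Csf2rb at 78325800 to 78351001, and reads from stretches that they share cannot be assigned to either. Their coding sequences in the GENCODE M21 annotation were identical at 95.2% of 2631 aligned bases, with a longest identical run of 242 bases. Of all 75-base words of the Csf2rb transcript 10.7% also occur in Csf2rb2, and 11.1% the other way. No other pair of the 10 shared a word. The first 75 coding bases, as long as 1 read, are shown to let the likeness be seen, with capitals at the 2 bases that tell the genes apart.
Csf2rb: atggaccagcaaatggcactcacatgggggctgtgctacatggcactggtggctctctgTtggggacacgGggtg
Csf2rb2: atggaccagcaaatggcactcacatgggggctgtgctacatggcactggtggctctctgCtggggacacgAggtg
The values of both genes are therefore uncertain, and the lower one, Csf2rb2, the more so. The listed FPKM ratio of Csf2rb2 to Csf2rb was 0.133 and 0.266 in 5-FU recipients and 0.289 and 0.171 in control recipients. The ratio of Csf2ra to Csf2rb was 5.82 and 7.67 in 5-FU recipients and 5.11 and 6.57 in control recipients. Neither ratio separated the groups. Il3ra, the IL-3-specific alpha chain, had 7.82 and 9.91 FPKM in 5-FU recipients, against 12.3 and 10.3 in control recipients (adjusted p = 0.43 in limma).

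Csf3r, the G-CSF receptor of the granulocyte lineage on chromosome 4, had 17.7 and 20.4 FPKM in 5-FU recipients, against 25.9 and 24.3 in control recipients. The groups did not overlap, but the log2 fold change of -0.38 (SE 0.21, 95% interval -0.87 to 0.11) did not pass (adjusted p = 0.26 in limma). Csf3r stood at 70.7% and 81.4% of its control mean. The 12 tested neutrophil markers had medians of 36.9% and 26.9% of theirs in the same libraries, and 7 of the 12 fell.

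Il6ra binds interleukin 6, and Il6st encodes gp130, the signalling chain that it shares with the receptors of several related cytokines. Il6ra had 11.5 and 4.96 FPKM in 5-FU recipients, against 11.7 and 25.4 in control recipients. The first 5-FU library and the first control library were nearly equal, so the groups were set apart by their second libraries. The log2 fold change of -1.09 was the largest of the 10 receptors, but with SE 0.45 its adjusted p was 0.14 in limma. It was -0.57 without control recipient 2 and -0.56 without 5-FU recipient 2, and it passed at -1.62 without 5-FU recipient 1 (adjusted p = 0.0098).

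Il6st had 6.83 and 2.58 FPKM in 5-FU recipients, against 9.43 and 9.19 in control recipients. The control libraries were close and the second 5-FU library was much lower than the first. The log2 fold change was -0.96 (SE 0.39, adjusted p = 0.14 in limma), -1.52 without 5-FU recipient 1 (adjusted p = 0.0044) and -0.40 without 5-FU recipient 2. The ratio of Il6ra to Il6st was 1.68 and 1.92 in 5-FU recipients, inside the control values of 1.25 and 2.76.

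Il7r, the alpha chain of the receptors of interleukin 7 and TSLP on lymphoid progenitors, was low throughout. It had 1.03 and 2.06 FPKM in 5-FU recipients, against 3.60 and 1.29 in control recipients. The groups overlapped, and the values correspond to roughly 30 to 85 reads per library. The log2 fold change of -0.38 (SE 0.43, 95% interval -1.38 to 0.61, adjusted p = 0.58 in limma) was 0.12 without control recipient 1. Il2rg, the common gamma chain that pairs with it, was in contrast higher, at 94.1 and 146.0 FPKM in 5-FU recipients and 74.0 and 82.5 in control recipients. Its log2 fold change of 0.58 (SE 0.24) did not pass (adjusted p = 0.15 in limma). The FPKM ratio of Il7r to Il2rg was 0.0109 and 0.0141 in 5-FU recipients, against 0.0486 and 0.0157 in control recipients. Like the interferon receptor ratios, it was lower in each 5-FU library and was not tested, and it rests on low Il7r values.

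**Figure D3:**
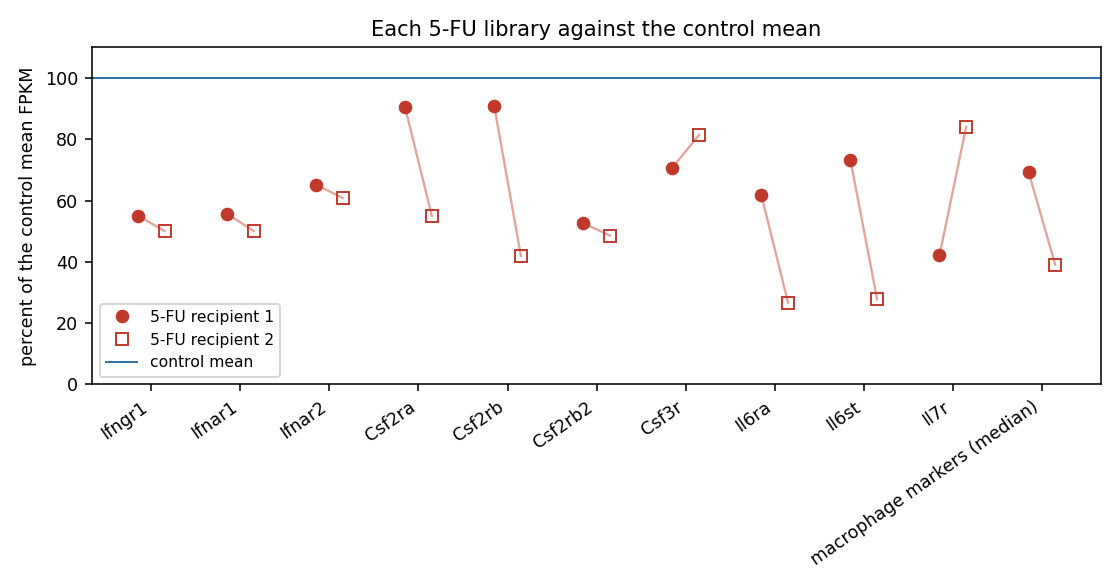
FPKM of each receptor gene in 5-FU recipients 1 (circles) and 2 (squares) as a percent of the control mean (blue line at 100), with the median over 16 macrophage markers at the right. Ifngr1, Ifnar1 and Ifnar2 lie close together in the 5-FU libraries and slightly lower in recipient 2, whereas Csf2ra, Csf2rb, Il6ra, Il6st and the macrophage median are lower there by a wider gap.

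Set against the control mean, the receptors showed different patterns in the 5-FU libraries. Ifngr1 stood at 55.1% and 50.0%, Ifnar1 at 55.7% and 50.1% and Ifnar2 at 65.2% and 60.9% in 5-FU recipients 1 and 2. Csf2ra stood at 90.4% and 55.0%, Csf2rb at 90.9% and 42.0%, Il6ra at 61.8% and 26.7% and Il6st at 73.3% and 27.7%. The median over the 16 macrophage markers was 69.4% and 39.1%, also lower in the second 5-FU library. Every receptor except Csf3r and Il7r was lower there, those of interferon and Csf2rb2 by little. The share of all tested genes lower there was not counted. All values of 5-FU recipient 2 summed to 762107 FPKM, against 678270 in 5-FU recipient 1 and 680412 and 678222 in control recipients. Of the macrophage markers 3 fell, none rose and 13 did not pass, and the list median was -0.93 on the log2 scale. The 10 tested B lineage markers had a median of 44.6% and 11.1% of control, also lower in the second 5-FU library, and 6 of them fell and none rose. The 12 listed B lineage markers summed to 237.2 and 178.9 FPKM in 5-FU recipients, against 448.1 and 439.9 in control recipients, with Igll1 at 0 in both 5-FU libraries. Most of these sums was Cd79b, at 171.0 and 154.5 FPKM in 5-FU recipients and 314.0 and 326.7 in control recipients. The 7 erythroid markers had a median of 1.09% and 1.02% of control, and 6 of them fell and none rose. They summed to 299.9 and 442.9 FPKM in 5-FU recipients, against 567.8 and 446.5 in control recipients, with Ermap at 0 in both 5-FU libraries. Nearly all of the 5-FU sums was Car2, at 299.1 and 441.7 FPKM, against 509.7 and 393.4 in control recipients. The groups overlapped for Car2, and it did not pass (adjusted p = 0.48 in limma). Macrophages express most of these receptors, and the part of macrophage, B lineage or erythroid transcripts in the receptor differences was not tested. Among genes induced by tissue dissociation, 6 of 12 fell and none rose, with medians of 50.2% and 31.7% of control, and their part was not tested either.

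**Figure D4:**
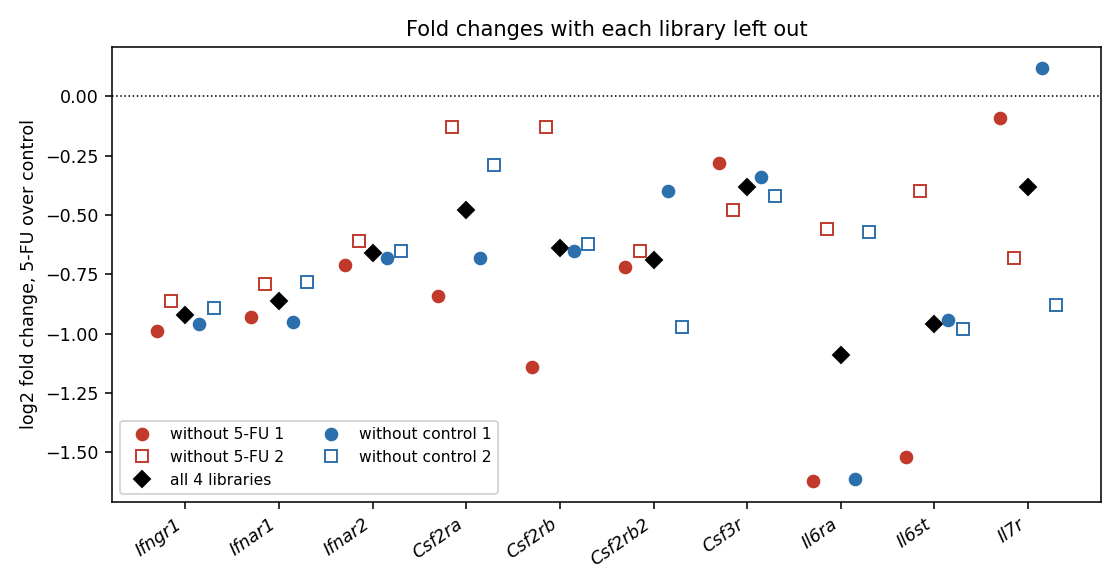
Log2 fold change of each receptor gene with all 4 libraries (diamonds) and with each library left out in turn (red, a 5-FU library; blue, a control library). Ifngr1 stays between -0.99 and -0.86, whereas Csf2rb ranges from -1.14 to -0.13 and Il7r crosses 0.

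For Ifngr1 and Ifnar1 the 3 tested genes of nearest pattern were picked by Euclidean distance between mean-centred log2 values over the 4 libraries. For Ifngr1 they were Rgs10, Inpp5k and Cd79b. Cd79b, a chain of the B cell receptor complex, had 171.0 and 154.5 FPKM in 5-FU recipients, against 314.0 and 326.7 in control recipients. For Ifnar1 they were Pbx3, Apbb1ip and Eya2. Apbb1ip, an adaptor of integrin activation, had 14.4 and 13.5 FPKM in 5-FU recipients, against 24.2 and 28.7 in control recipients.

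Inside the cell, Jak1, the kinase that serves the interferon and gp130 receptors, fell. It had 56.3 and 54.7 FPKM in 5-FU recipients, against 88.6 and 90.3 in control recipients (log2 fold change -0.68, SE 0.18, adjusted p = 0.049 in limma). It was the 1 of 14 Janus kinase, STAT, Irf9 and SH2 phosphatase genes to pass, and the list median was -0.35. Jak2, the kinase of the beta chain receptors, had 13.4 and 9.19 FPKM in 5-FU recipients, against 17.7 and 15.01 in control recipients (adjusted p = 0.23 in limma). Tyk2 had 9.20 and 3.29 FPKM in 5-FU recipients, against 4.59 and 7.84 in control recipients, and its groups overlapped. Stat3, the main STAT of gp130, had a log2 fold change of -0.44 and did not pass (SE 0.20, adjusted p = 0.18 in limma).

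Of 24 genes induced by interferons, 2 fell, none rose and 22 did not pass. The list median was -0.64, with 20 negative and 4 positive log2 fold changes. The 24 genes summed to 868.7 and 776.0 FPKM in 5-FU recipients, against 926.8 and 857.9 in control recipients. Both that fell are type I interferon targets. Ifi44 had 2.92 and 1.81 FPKM in 5-FU recipients, against 8.24 and 8.26 in control recipients (log2 fold change -1.48, SE 0.30, adjusted p = 0.024 in limma). Rsad2, the antiviral enzyme viperin, had 4.32 and 2.37 FPKM in 5-FU recipients, against 11.8 and 8.51 in control recipients (log2 fold change -1.38, SE 0.33, adjusted p = 0.037 in limma). Of 7 feedback genes 6 were tested and 1 passed. Cish, an inhibitor induced by STAT5, rose to 9.71 and 9.28 FPKM in 5-FU recipients, against 3.47 and 3.78 in control recipients (log2 fold change 1.18, SE 0.27, adjusted p = 0.030 in limma).

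Ligands of these receptors were mostly low in the sorted cells. Of 15 ligand genes 11 were under 1 FPKM in every library, 7 of which were listed at 0 throughout (Csf2, Csf3, Il3, Il5, Lif, Ifng and Ifnb1), and 3 were high enough to be tested. Tslp, whose product signals through Il7r and Crlf2, was the 1 that passed. It fell to 2.41 and 0.859 FPKM in 5-FU recipients, against 6.31 and 7.57 in control recipients (log2 fold change -1.65, SE 0.37, adjusted p = 0.030 in limma). Among 17 partner chains and other growth factor receptors 12 were tested and 1 passed as lower, at a list median of -0.34. That was Csf1r, the M-CSF receptor of the macrophage lineage, at 54.1% and 31.3% of its control mean in 5-FU recipients 1 and 2 (log2 fold change -1.27, SE 0.27, adjusted p = 0.027 in limma). Over the ligand, partner, kinase, feedback and target lists together, 5 genes fell and 1 rose. None of these 6 calls held without control recipient 1 or without control recipient 2, while 20 fell and 4 rose without 5-FU recipient 1, and 9 fell and 2 rose without 5-FU recipient 2, of 59 tested. Over all tested genes 16.3% fell and 18.5% rose without 5-FU recipient 1, and 6.65% fell and 9.08% rose without 5-FU recipient 2.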

How the data were processed

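RNA was read as 75 bp single ends from SMART-Seq Ultra Low Input libraries, per the labels' protocols. The build mm10 and the tools TopHat2 2.0.13, Bowtie2 2.2.3, SAMtools 0.1.19 and Cuffnorm 2.2.1 are named, without their settings, per the submitters' processing notes. The deposited values are FPKM as the authors scaled them between libraries. No source used here states that scaling setting or the annotation. Groups follow the labels, although header and file name of each 5-FU library give unlike days. Depth was estimated from the steps between low values, assuming the longest coding transcript in GENCODE M21. Whole reads were not recovered, so no count test was run.

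Genes that reached 1 FPKM in 2 or more libraries were tested as log2(FPKM + 1) with limma 3.58.1 in R 4.3.3 (residual degrees of freedom 2, prior 5.62), group as the only term, on all tested genes. By the labels each library is 1 recipient. The spread behind each p-value is that between libraries of a group, moderated toward a trend over all tested genes. The fit was tested on simulated data. Replicate numbers pair nothing that the labels name. Listed symbols were matched directly or by RefSeq synonyms. The receptors and gene lists were chosen with earlier results of these data known. The text names all 10 receptors, a few fixed partners, and in each pathway list at most the 4 changed genes of smallest p; Il10rb's stretch was added after its values were seen. Sequence motifs were searched in RefSeq promoter windows. Figures were drawn with matplotlib 3.10.9. One gene of the fixed partners is not reported here.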

Additional observations from a re-analysis of the deposited data

How the results depend on the processing

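The fit was repeated with a pseudocount of 0.1 or 5, without the filter, with a filter of 5 FPKM, with TPM-scale, quantile or median-ratio scaling, without a trend, with robust eBayes, with the replicate block and with each library left out. All 14 kept the direction of 9 receptors where they were tested, and Il7r, at -0.38 with all libraries, ranged from -0.88 without control recipient 2 to 0.12 without control recipient 1. The count of lower receptors, 2, was 0 with no filter (3 at an unadjusted p under 0.05), 0 without a trend (5 unadjusted) and 0 with the replicate block (5 unadjusted). Over all tested genes the shares called lower at the adjusted p were 0.0244%, 2.6% and 4.69% in the same order, beside 4.67% with the main fit. No such share was counted for the unadjusted p. Leaving out 1 library gave 0 to 7 lower receptors, 0 to 20 lower genes of the pathway lists (5 with all libraries) and 0 to 4 higher ones (1 with all). The pathway lists had 0 lower and 0 higher genes with no filter, and 3 lower without a trend. No receptor was called higher under any of these. Ifnar2 passed under quantile scaling (adjusted p = 0.034), on the TPM scale (0.047) and with the filter of 5 FPKM (0.049), and Ifnar1 then missed on the TPM scale at 0.050. With the replicate block Ifngr1 had an adjusted p of 0.059 and Ifnar1 one of 0.072. Same-numbered libraries deviated with a correlation of -0.16 over genes, and the numbers mark no shared animal. The cause of these changes was not tested. Depth limits Il7r and Csf2rb2 most, which rest on the fewest reads, and 2 libraries a group limit every call.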
